A study of Mus musculus with 203 samples.

Results

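Lysosomes are acid compartments in which macrophages break down engulfed and internal material. Proteases of the cathepsin family cut proteins, glycosidases and their partner enzymes take sugars off glycans and glycolipids, lipases and lipid-transfer proteins release cholesterol and fatty acids, and a proton pump (the V-ATPase, with a V1 part that hydrolyses ATP and a V0 part in the membrane) keeps the lumen acid. Many of these genes carry a short palindromic element to which TFEB and related transcription factors bind. The 37 genes described here are hydrolases of the lumen, the pump subunits, and a few lysosomal membrane and luminal proteins with the regulator Tfeb. They were chosen by gene symbol, by a rule that names no measured value, with earlier results of these data known. All 37 were among the 25094 genes of the RAW cell table and among the 16478 genes of the bone marrow-derived macrophage (BMDM) table, from which gene symbols alone were used. They comprise 9 cathepsins and legumain, 11 glycosidases and other glycan enzymes, 6 proton pump subunits, 7 lipid-handling and other proteins, and 4 membrane proteins and regulators.

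RNA-seq of RAW264.7 cells, a mouse macrophage line from a BALB/c tumour, was measured in 4 groups of 4 libraries. All cells carried a lentiviral hairpin and were selected as stable pools with puromycin. shGFP cells received a hairpin against GFP, which mouse cells lack, and shKDM1A cells 1 hairpin against Kdm1a, the gene of a demethylase that removes methyl groups from histone H3. Each pool was left without IL4 (control) or was given 20 ng/ml of IL4, the cytokine of alternative macrophage activation, for 6 h. With 1 hairpin against Kdm1a, an effect of that hairpin or of the selected cells cannot be told apart from one of KDM1A loss. The study's methods speak of biological replicates for its experiments as a whole, and the labels do not show whether libraries of a group came from separate cultures, so p-values measure only the spread between these libraries.

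Values are log2 expression per library as deposited, moderated for weakly expressed genes, so a difference of 1 is a doubling and changes of weak genes are understated. A gene is called higher or lower when the adjusted p from limma, fitted over 12905 genes in 1 model of the 4 groups, was under 0.05. Libraries held 17554721 to 27782568 tags, and the median difference between libraries of a group was 0.04 to 0.06 across genes. Kdm1a was at 11.21, 11.23, 11.13 and 11.17 in the shGFP control libraries and at 10.36, 10.32, 10.23 and 10.29 in the shKDM1A control libraries, a difference of -0.88 (standard error 0.03, adjusted p = 5.62e-13), which leaves 0.54 of the transcript. With IL4 the difference was -0.79 (standard error 0.03, adjusted p = 2.2e-12). The 8 macrophage markers passed the filter on low values, with group means up to 17.2 for Lyz2. In shKDM1A cells 4 of these were called higher and 3 lower without IL4, and 5 higher and 3 lower with IL4, from Lyz2 at 0.68 to Mrc1 at -0.83, and their part in the results was not tested. Of 27 markers of T cells, B cells, neutrophils, fibroblasts, epithelium and endothelium, 3 passed, none with a group mean over 1.51, and Kdr alone of these was called in a knockdown comparison (with IL4). In bulk RNA, fewer cells of a type and less RNA per cell cannot be told apart.

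In unstimulated shGFP cells the lysosomal genes ranged from among the most abundant transcripts of the cell to barely detected ones. Per kb of transcript, Ctsd (aspartic protease) stood highest at a log2 level of 13.88 ± 0.04 (SD, n = 4), above 99.3% of the genes tested. Ctsb followed at 13.46 ± 0.03, Ctsz at 13.25 ± 0.05 and Ctss at 13.12 ± 0.03, and the first member outside the protease group was Lamp1, the main glycoprotein of the lysosomal membrane, at 13.02 ± 0.01. The median of all genes tested was 7.62, and 20 of the 37 members lay above 90% of the genes tested. Lysosomal lipid and sphingolipid partners followed, with Psap, the saposin precursor, at 12.89 and Lipa, the acid lipase, at 11.92. Pump subunits ranged from 11.26 for Atp6v1b2, at rank 13 of the 37 members, to 7.98 for Atp6v0a1, at rank 33. Enzymes of heparan sulfate breakdown spread widely, from Gusb at 12.07, above 97.3% of the genes tested, to Naglu at 8.84, Hgsnat at 8.28, Sgsh at 7.62, Ids at 7.21 and Idua at 6.23. Ctsh, an aminopeptidase, was close to undetected at 0.93. In this order, 10 of the 36 pairs of neighbours had overlapping libraries, among them Atp6v0d1 at 10.59, Npc2 at 10.58, Ppt1 at 10.57 and Lamp2 at 10.55, which do not differ beyond their spread. Counting did not use strand, and 10 members share part of their span with another listed gene, so that reads of Ctsa and Pltp (1515 shared bases), Ctsb and Fdft1 (773), Glb1 and Tmppe (10107), Sgsh and Card14 (1891), Idua and Slc26a1 (5484) or Ppt1 and Cap1 (128) could be mixed. Of the overlapping neighbours, Cap1, at a mean log2 value of 14.73, and Dgkq, at 8.62 and sharing 500 bases with Idua, had higher values than their members.

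**Figure D1:**
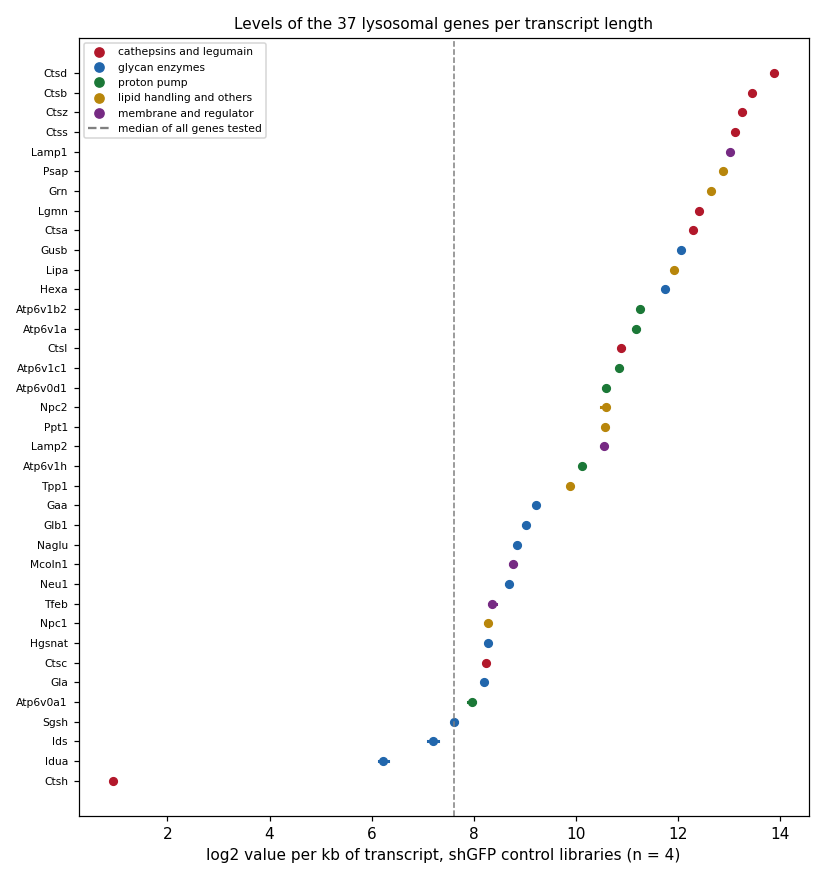
Levels of the 37 genes in the 4 shGFP control libraries, as log2 value minus log2 of the transcript length in kb (horizontal axis), with a point for the mean, a line from the lowest to the highest library, colours for the 5 groups and a dashed line at the median of all genes tested (7.62). Proteases hold the first 4 places, headed by Ctsd at 13.88, and Ctsh at 0.93 is the only member far below the dashed line.

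The stretches below show the element as it lies near the start sites of 8 members, from RefSeq promoter windows of the mouse assembly GRCm38.p6 (250 bases before to 50 after each start). They were chosen because they hold its full form TCACGTGA, or, for Lamp1 and Ctsl, because Lamp1 holds the most copies of the CACGTG core and Ctsl is the member with the largest knockdown difference. Capitals mark CACGTG, with the flanking T and A where the full form is complete.
Ctsa: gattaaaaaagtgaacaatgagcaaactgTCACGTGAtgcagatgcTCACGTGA
Ctsd: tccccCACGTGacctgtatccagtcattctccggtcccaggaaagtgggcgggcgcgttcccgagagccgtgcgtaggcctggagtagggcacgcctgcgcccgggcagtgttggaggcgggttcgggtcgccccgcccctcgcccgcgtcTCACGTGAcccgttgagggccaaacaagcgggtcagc
Gla: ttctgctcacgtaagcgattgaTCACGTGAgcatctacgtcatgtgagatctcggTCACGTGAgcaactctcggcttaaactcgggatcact
Atp6v1a: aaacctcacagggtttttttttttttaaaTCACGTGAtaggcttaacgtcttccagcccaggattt
Atp6v0d1: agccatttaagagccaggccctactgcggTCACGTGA
Mcoln1: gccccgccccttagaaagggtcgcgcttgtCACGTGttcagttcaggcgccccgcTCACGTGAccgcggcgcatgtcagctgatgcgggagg
Lamp1: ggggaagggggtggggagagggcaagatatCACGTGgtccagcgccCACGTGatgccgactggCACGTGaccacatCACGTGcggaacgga
Ctsl: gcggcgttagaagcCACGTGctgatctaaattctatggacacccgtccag

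These lie at chr2:164833731-164833784 (plus strand), chr7:142387890-142388077 (minus), chrX:134601164-134601255 (minus), chr16:44139355-44139420 (minus), chr8:105566061-105566097 (minus), chr8:3500418-3500509 (plus), chr8:13159070-13159160 (plus) and chr13:64370721-64370770 (minus). Ctsa, the carboxypeptidase that also protects Neu1 and Glb1, has 2 full copies that begin at -13 and 5, counted with the first transcribed base as 1, and Gla, alpha-galactosidase A, has 2 at -228 and -195. Lamp1 has 4 cores between -61 and -15, none of them in the full form. Of the 37 members, 30 had a window, and Atp6v1b2, Atp6v1c1, Atp6v1h, Ctsb, Ctsh, Hgsnat and Npc1 had none. The core, which reads the same on both strands and lies inside the full form, was in at least 1 window of 13 of these 30 (43.3%) against 8.09% of 27025 genes, and the full form in 6 (20.0%) against 1.12%. Of 77 further lysosomal genes with a window, from the lists described below, 17 (22.1%) held the core and 7 (9.09%) the full form. Besides the 8 genes shown, the members Gaa, Glb1, Lgmn, Naglu and Sgsh held a core. A palindrome of the STAT type, TTC and GAA with 4 bases between them, was in 1 window, of Tfeb, 3.33% of the members with a window against 8.01% of genes. A match is a stretch of letters and not a measured binding site.

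Knockdown of Kdm1a addressed how the demethylase affects macrophage gene expression, and most of the 37 members were higher in shKDM1A cells. Without IL4, 22 of 37 members were called higher, against 19.7% of all genes tested, and 5 were called lower, against 18.4%. The median difference of the members was 0.11 on the log2 scale and that of all genes 0.00. With IL4, in libraries that share none with the first comparison, 21 were higher (all genes 20.9%) and 6 lower (all genes 19.8%), with a median of 0.12. Calls coincided in both conditions for 19 higher and 3 lower members, and 1 member, Naglu, was called in opposite directions. The same shGFP and shKDM1A pools served in both conditions. Pearson's r between the differences without and with IL4 was 0.92 over the members and 0.87 over all genes tested. Most differences were small: 4 members in each condition exceeded 0.5 in size, and all of these were higher. Of all genes called and over 0.5 in size, 337 without and 319 with IL4, 76.0% and 75.9% were higher.

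**Figure D2:**
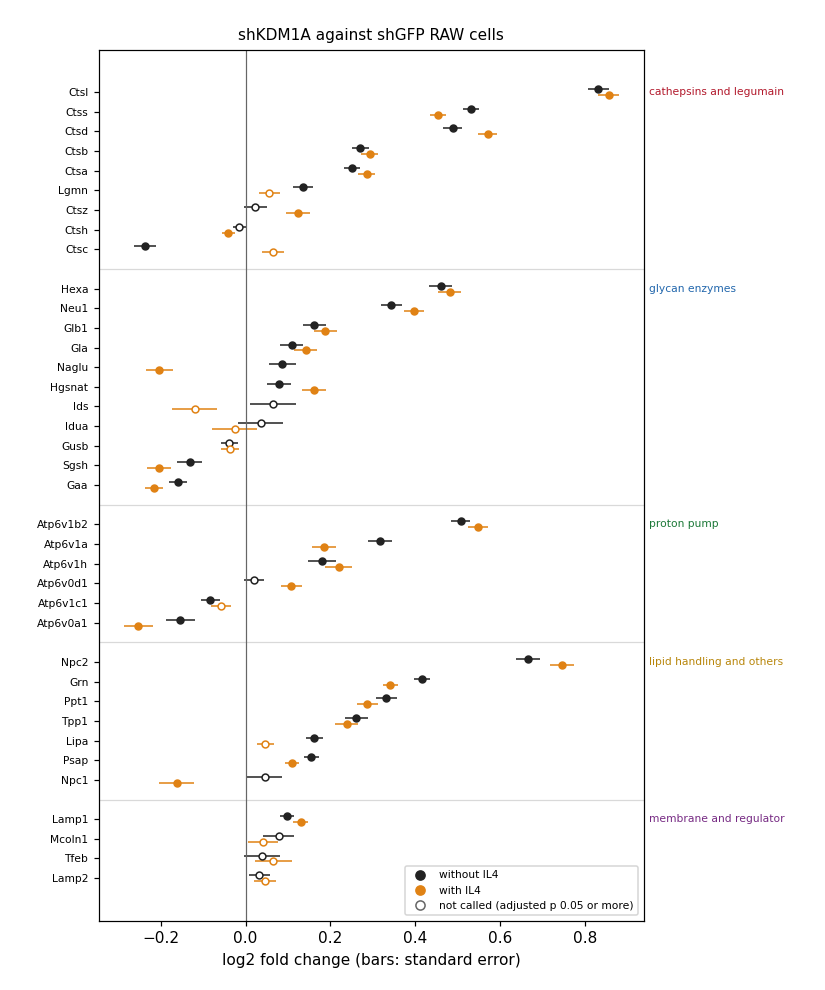
Log2 fold change of each member in shKDM1A against shGFP cells (horizontal axis) without IL4 (black) and with IL4 (orange), grouped by function, with bars for the standard error and open symbols for differences that were not called. Ctsl and Npc2 lie farthest to the right, at 0.83 and 0.67 without IL4, and the called values of Ctsc, Gaa, Sgsh, Atp6v0a1 and Atp6v1c1 lie to the left of 0 without IL4.

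Among the proteases, 6 of 9 were higher without IL4 and 6 of 9 with IL4, with group medians of 0.25 and 0.29. Ctsl, a cysteine endopeptidase at chr13:64463198-64471828 of mm9, had values of 12.67, 12.66, 12.68 and 12.75 in shGFP and 13.52, 13.49, 13.52 and 13.56 in shKDM1A control libraries. The 2 groups were far apart, and the difference of 0.83 (standard error 0.02, adjusted p = 1.58e-13) made the transcript 1.78 times as abundant. With IL4 its libraries were at 12.56, 12.55, 12.52 and 12.60 in shGFP and 13.45, 13.38, 13.42 and 13.39 in shKDM1A cells, a difference of 0.86 (standard error 0.02, adjusted p = 1.14e-13). Ctss, the cysteine protease that trims the invariant chain in antigen-presenting cells, stood at 13.56, 13.57, 13.51 and 13.56 against 14.08, 14.08, 14.08 and 14.09. Every shKDM1A library again lay above every shGFP library, by 0.53 (standard error 0.02, adjusted p = 1.66e-12) without IL4 and 0.45 (standard error 0.02, adjusted p = 1.14e-11) with it.

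Ctsd, at chr7:149561815-149573732 of mm9 and the highest member per length, had 14.81, 14.83, 14.75 and 14.84 in shGFP and 15.31, 15.31, 15.27 and 15.30 in shKDM1A control libraries, which did not overlap. Its difference was 0.49 (standard error 0.02, adjusted p = 4.27e-11) without IL4 and 0.57 (standard error 0.02, adjusted p = 6.21e-12) with IL4. Ctsb, a cysteine protease with endo- and exopeptidase activity, rose by 0.27 ± 0.02 (standard error) and 0.29 ± 0.02, and Ctsa by 0.25 ± 0.02 and 0.29 ± 0.02. For Ctsb, one of the most abundant genes of the table, quantile normalization of the libraries brought the difference to 0.07 (adjusted p = 0.0233 from limma) without IL4 and to -0.06 (adjusted p = 0.0439) with it. Lgmn, the asparaginyl endopeptidase, was called higher without IL4 (0.13 ± 0.02, and 0.06 ± 0.02 with IL4), and Ctsz, a carboxypeptidase, was called higher with IL4 (0.12 ± 0.03, and 0.02 ± 0.03 without it), and the same normalization left 0.07 for each of these 2 called differences. The change of the knockdown difference between the IL4 states was not called for Lgmn (adjusted p = 0.179 from limma) or Ctsz (adjusted p = 0.145).

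Ctsc ran the other way. This dipeptidyl peptidase, which activates serine proteases of granules, was at 11.12, 11.13, 11.15 and 11.15 in shGFP and 10.86, 10.91, 10.87 and 10.97 in shKDM1A control libraries, a difference of -0.24 (standard error 0.03, adjusted p = 1.62e-06). With IL4 its difference was 0.06 ± 0.03 and was not called (adjusted p = 0.0574 from limma). In 3 alternative analyses, a replicate block among them, this difference was called higher (adjusted p = 0.0245 to 0.0359 from limma). Ctsh, near the detection limit, differed by -0.02 ± 0.02 and -0.04 ± 0.02, and its call with IL4 (adjusted p = 0.0408) did not persist in 10 of the alternative analyses.

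**Figure D3:**
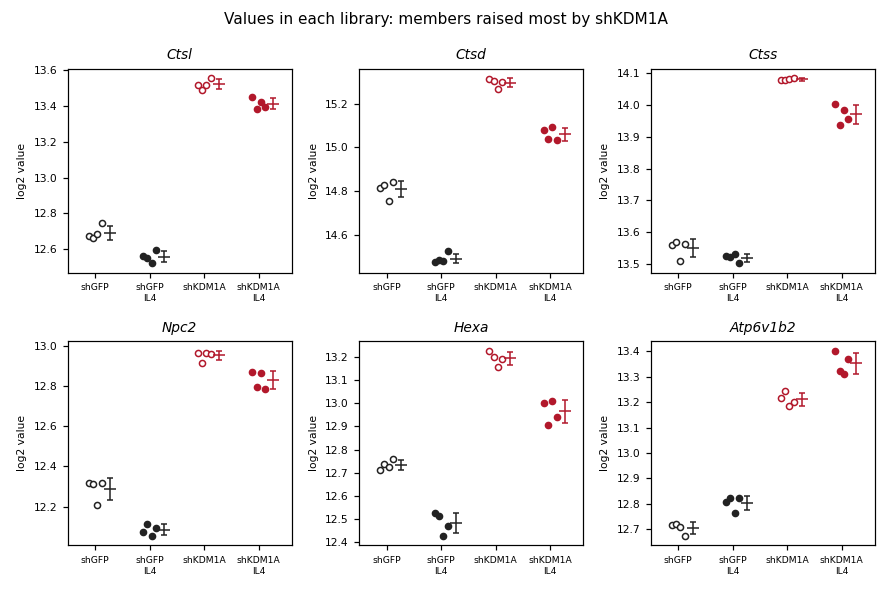
Log2 values in each of the 16 libraries (vertical axis, a separate range in each panel) for 6 members, with shGFP in black, shKDM1A in red, open circles without IL4, filled circles with IL4, and a dash with bars for mean and SD (n = 4). In all 6 panels every shKDM1A library lies above every shGFP library, for example Ctsl at 13.49 to 13.56 against 12.66 to 12.75 without IL4.

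Among the glycan enzymes the directions were mixed: 6 of 11 were higher and 2 lower without IL4 (all genes 19.7% and 18.4%). With IL4 5 were higher and 3 lower (all genes 20.9% and 19.8%), and the medians were 0.08 and -0.03. Hexa, the alpha subunit of beta-hexosaminidase, showed the largest difference. Its values were 12.71, 12.74, 12.72 and 12.76 in shGFP and 13.23, 13.20, 13.16 and 13.19 in shKDM1A control libraries, without overlap, and it was higher by 0.46 (standard error 0.03, adjusted p = 7.89e-10) without and 0.48 (standard error 0.03, adjusted p = 4.76e-10) with IL4. Neu1, the lysosomal sialidase, had 10.68, 10.65, 10.58 and 10.61 against 10.97, 10.98, 11.00 and 10.95, a difference of 0.34 (standard error 0.02, adjusted p = 8.74e-09), and 0.40 ± 0.02 with IL4. Neu1, Glb1 (beta-galactosidase) and the protease Ctsa sit in 1 multienzyme complex, and all 3 were higher in both states, Glb1 by 0.16 ± 0.03 and 0.19 ± 0.03.

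Gla was higher by 0.11 ± 0.03 and 0.14 ± 0.03, whereas Gaa, which degrades glycogen, was lower, at -0.16 ± 0.02 and -0.22 ± 0.02 (adjusted p = 2.1e-05 and 6.86e-07). Gusb, beta-glucuronidase, was not called in either state (-0.04 ± 0.02, 95% interval -0.08 to 0.00, without IL4), but was called lower in both after quantile normalization, at -0.10 (adjusted p = 0.00105 and 0.000953 from limma). The heparan sulfate pathway did not move together. Hgsnat was higher by 0.08 ± 0.03 and 0.16 ± 0.03, Sgsh was lower, at -0.13 ± 0.03 and -0.20 ± 0.03, and Ids and Idua were not called, with 0.06 ± 0.05 and 0.04 ± 0.05 without IL4. Naglu changed sides, from 0.09 (standard error 0.03, adjusted p = 0.045) without IL4 to -0.20 (standard error 0.03, adjusted p = 9.76e-05) with IL4. The first of these Naglu calls was lost in 10 alternative analyses and the Hgsnat call without IL4 in 7.

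Of the proton pump subunits, 3 of 6 were higher and 2 lower without IL4 (all genes 19.7% and 18.4%). With IL4 4 were higher and 1 lower (all genes 20.9% and 19.8%). Atp6v1b2, the B subunit of the V1 part, led the group with 12.72, 12.72, 12.71 and 12.67 in shGFP and 13.21, 13.25, 13.19 and 13.20 in shKDM1A control libraries. The groups did not overlap, and the difference was 0.51 (standard error 0.02, adjusted p = 4.21e-11) without and 0.55 (standard error 0.02, adjusted p = 1.55e-11) with IL4, 1.42 and 1.46 times the shGFP level. Atp6v1a, the catalytic A subunit that pairs with B, had 13.22, 13.29, 13.30 and 13.20 against 13.55, 13.61, 13.56 and 13.55 and was higher by 0.32 (standard error 0.03, adjusted p = 1.33e-07), with 0.18 ± 0.03 in IL4-treated cells. Atp6v1h, which couples the V1 and V0 parts, was higher by 0.18 ± 0.03 and 0.22 ± 0.03. Atp6v1c1, a C subunit, was called lower without IL4 (-0.08 ± 0.02) and not with it (-0.06 ± 0.02, adjusted p = 0.0626 from limma). After quantile normalization it was called lower in both states, at -0.13 and -0.10. The change of its difference between the IL4 states was not called (adjusted p = 0.701 from limma). In the membrane part, Atp6v0d1 was higher with IL4 (0.11 ± 0.02) and not called without it (0.02 ± 0.02), and Atp6v0a1 was lower in both states (-0.15 (standard error 0.03, adjusted p = 0.00209) and -0.25 (standard error 0.03, adjusted p = 2.06e-05)).

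Of the lipid-handling proteins and remaining hydrolases, 6 of 7 were higher without IL4 and the other, Npc1, was not called, with a group median of 0.26. With IL4, 5 were higher and 1 lower. Npc2, which hands cholesterol from the lumen to the membrane protein Npc1, was at 12.32, 12.31, 12.21 and 12.32 in shGFP and 12.97, 12.92, 12.97 and 12.96 in shKDM1A control libraries. It was higher by 0.67 (standard error 0.03, adjusted p = 1.54e-11), 1.59 times the shGFP level, and by 0.75 (standard error 0.03, adjusted p = 3.67e-12) with IL4. Its partner Npc1 was at 0.05 ± 0.04 (adjusted p = 0.425 from limma) without IL4 and was lower with IL4, at -0.16 (standard error 0.04, adjusted p = 0.00491). Grn, the gene of progranulin, had 13.74, 13.74, 13.73 and 13.78 against 14.17, 14.16, 14.17 and 14.16 and was higher by 0.42 (standard error 0.02, adjusted p = 2.93e-11), and by 0.34 ± 0.02 with IL4. Ppt1, a palmitoyl-protein thioesterase, rose by 0.33 ± 0.02 and 0.29 ± 0.02, Tpp1, a tripeptidyl peptidase, by 0.26 ± 0.03 and 0.24 ± 0.03, and Psap by 0.15 ± 0.02 and 0.11 ± 0.02. Lipa was higher without IL4 (0.16 ± 0.02) and not called with it (0.05 ± 0.02). After quantile normalization the Psap difference with IL4 was 0.04 and no longer called (adjusted p = 0.0657 from limma), and that of Lipa without IL4 was 0.10.

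Of the 4 membrane proteins and regulators, 1 was called. Lamp1 was higher by 0.10 ± 0.02 without and 0.13 ± 0.02 with IL4 (adjusted p = 0.000175 and 1.04e-05), and the call with IL4 was lost after quantile normalization (0.04, adjusted p = 0.136 from limma). Lamp2, the other main membrane glycoprotein, and Mcoln1, the lysosomal calcium channel, were not called in either state. Tfeb, a transcription factor for lysosomal genes, was at 9.55, 9.56, 9.51 and 9.66 in shGFP and 9.62, 9.56, 9.62 and 9.64 in shKDM1A control libraries. These overlapped, with a difference of 0.04 ± 0.04 and a 95% interval of -0.05 to 0.13. The 6 members with a full TCACGTGA form had a median knockdown difference of 0.18 without IL4 (4 higher, the other 2 not called). The 13 with a core, these 6 included, had 0.11 (9 higher, and Gaa and Sgsh lower), and the 17 members with a window and no core had 0.15 (9 higher, 2 lower). With IL4 the medians were 0.16, 0.13 and 0.11 in that order.

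IL4 is the stimulus whose response the knockdown was meant to probe, and after 6 h most of the 37 members were lower in it. In shGFP cells 22 of 37 members were lower, against 13.7% of all genes, and 8 were higher, against 13.1%. The median of the members was -0.12 and that of all genes 0.00. In shKDM1A cells 21 were lower (all genes 13.5%) and 4 higher (all genes 13.6%), with a median of -0.12. Both comparisons, which share no libraries, called 19 members lower and 4 higher, and Naglu alone was called in opposite directions. Pearson's r between the responses in shGFP and shKDM1A cells was 0.81 over the members and 0.77 over all genes tested. The largest differences in shGFP cells were those of Gla and Ctsb, both at -0.40. Quantile normalization brought Ctsb to -0.22, and Gla to -0.39.

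**Figure D4:**
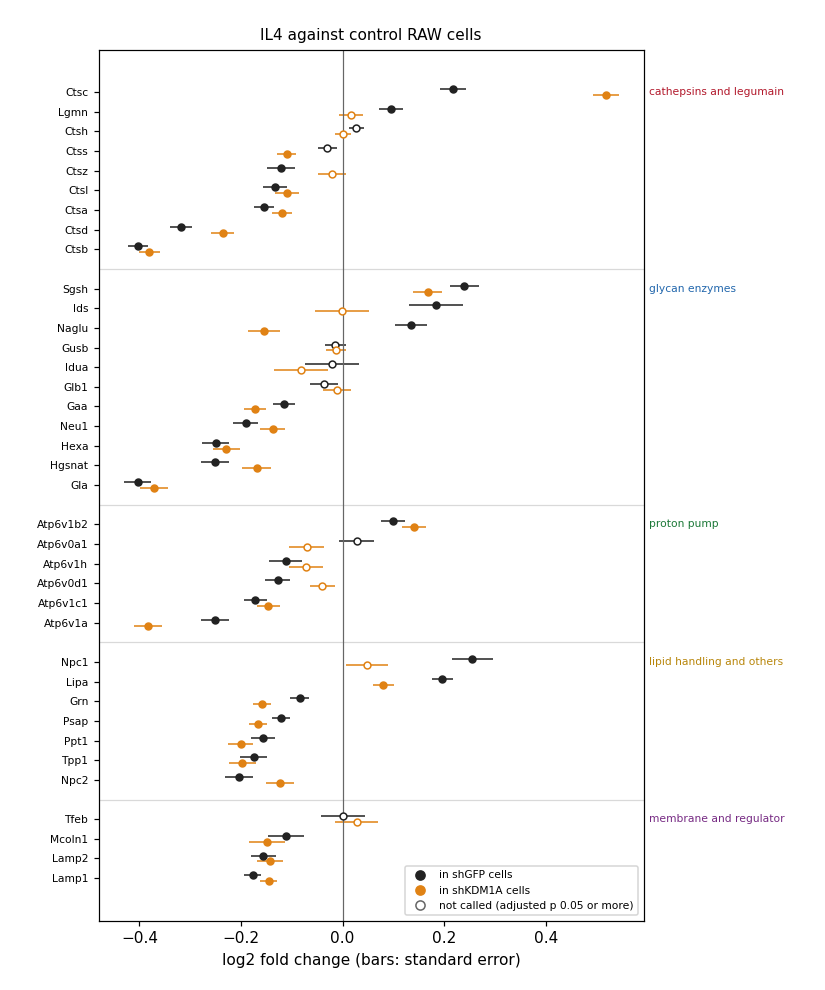
Log2 fold change of each member with IL4 against control (horizontal axis) in shGFP cells (black) and shKDM1A cells (orange), drawn as in the plot of knockdown differences. Most points lie left of 0, down to -0.40 for Gla and -0.40 for Ctsb in shGFP cells, while Ctsc lies farthest to the right, at 0.52 in shKDM1A cells.

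Of the proteases, 5 of 9 were lower in each cell type, and 2 were higher in shGFP and 1 in shKDM1A cells. Ctsb went from 15.70, 15.73, 15.67 and 15.73 in shGFP control to 15.30, 15.32, 15.28 and 15.32 in shGFP IL4 libraries. The groups did not overlap, and the difference was -0.40 (standard error 0.02, adjusted p = 1.93e-10), with -0.38 (standard error 0.02, adjusted p = 4.54e-10) in shKDM1A cells. Also lower in shGFP and in shKDM1A cells were Ctsd (-0.32 ± 0.02 and -0.24 ± 0.02), Ctsa (-0.15 ± 0.02 and -0.12 ± 0.02) and Ctsl (-0.13 ± 0.02 and -0.11 ± 0.02). Ctss was called lower in shKDM1A cells (-0.11 ± 0.02, and -0.03 ± 0.02 in shGFP cells) and Ctsz in shGFP cells (-0.12 ± 0.03, and -0.02 ± 0.03 in shKDM1A cells). The difference between the 2 responses was not called for Ctss (adjusted p = 0.0862 from limma) or Ctsz (adjusted p = 0.145). Lgmn was higher with IL4 in shGFP cells by 0.09 ± 0.02 and was at 0.02 ± 0.02 in shKDM1A cells, a difference between responses that was not called (adjusted p = 0.179 from limma).

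Glycan enzymes split in their IL4 response. Gla showed the largest fall, from 9.84, 9.81, 9.76 and 9.75 in shGFP control to 9.38, 9.36, 9.39 and 9.40 in shGFP IL4 libraries, a difference of -0.40 (standard error 0.03, adjusted p = 7.8e-09). Its difference in shKDM1A cells was -0.37 ± 0.03. Hexa (-0.25 ± 0.03 and -0.23 ± 0.03), Hgsnat (-0.25 ± 0.03 and -0.17 ± 0.03), Neu1 (-0.19 ± 0.02 and -0.14 ± 0.02) and Gaa (-0.12 ± 0.02 and -0.17 ± 0.02) were lower in shGFP and in shKDM1A cells. Sgsh, a sulfatase of heparan sulfate breakdown, rose from 9.71, 9.78, 9.71 and 9.73 to 9.95, 10.00, 9.97 and 9.96 in shGFP cells, by 0.24 (standard error 0.03, adjusted p = 8.3e-06), and by 0.17 ± 0.03 in shKDM1A cells. Ids was higher in shGFP cells (0.18 ± 0.05, adjusted p = 0.0177) and at -0.00 ± 0.05 in shKDM1A cells. The difference between these responses was not called (adjusted p = 0.16 from limma), and the Ids call in shGFP cells was lost without the filter (adjusted p = 0.0687) and without shGFP control replicate 1 or 4 or shGFP IL4 replicate 4 (adjusted p = 0.0558 to 0.0644). Glb1, Gusb and Idua were not called in either cell type.

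In the proton pump, Atp6v1a went from 13.22, 13.29, 13.30 and 13.20 to 12.97, 13.00, 13.01 and 13.01 in shGFP cells, a difference of -0.25 (standard error 0.03, adjusted p = 3.46e-06), and was at -0.38 (standard error 0.03, adjusted p = 2.47e-08) in shKDM1A cells. Its partner Atp6v1b2 rose slightly in both, by 0.10 ± 0.02 and 0.14 ± 0.02, so that the A and B subunits responded in opposite directions. Atp6v1c1 was lower in both cell types (-0.17 ± 0.02 and -0.15 ± 0.02), and Atp6v0d1 and Atp6v1h were called lower in shGFP cells (-0.13 ± 0.02 and -0.11 ± 0.03). The difference from the response in shKDM1A cells was not called for Atp6v0d1 (adjusted p = 0.144 from limma) or Atp6v1h (adjusted p = 0.667), and the Atp6v1h call was lost without the filter and without shGFP control replicate 1 or shGFP IL4 replicate 3 (adjusted p = 0.052 to 0.0549). Atp6v0a1 was not called in either.

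Among the lipid-handling group, Npc2 (-0.20 ± 0.03 and -0.12 ± 0.03), Tpp1 (-0.18 ± 0.03 and -0.20 ± 0.03), Ppt1 (-0.16 ± 0.02 and -0.20 ± 0.02), Psap (-0.12 ± 0.02 and -0.17 ± 0.02) and Grn (-0.08 ± 0.02 and -0.16 ± 0.02) were lower in both cell types. The Psap difference in shGFP cells was -0.06 after quantile normalization. Npc1 was higher in shGFP cells, from 10.60, 10.68, 10.68 and 10.65 to 10.87, 10.93, 10.93 and 10.92, by 0.26 (standard error 0.04, adjusted p = 0.000177), the opposite direction to Npc2. Lipa, too, was higher, by 0.20 ± 0.02 and 0.08 ± 0.02. Lamp1 (-0.18 ± 0.02 and -0.15 ± 0.02), Lamp2 (-0.16 ± 0.03 and -0.14 ± 0.03) and Mcoln1 (-0.11 ± 0.04 and -0.15 ± 0.04) were lower in both, while Tfeb was not called, at 0.00 ± 0.04 in shGFP cells, with a 95% interval of -0.09 to 0.09. All 6 members with a full TCACGTGA form, Mcoln1 included, were lower in shGFP cells, with a median of -0.20 (all genes 13.7% lower). Of the 13 with a core 9 were lower and 3 higher (median -0.13), and of the 17 with a window and no core 9 were lower and 3 higher (median -0.08). In shKDM1A cells the medians were -0.19, -0.15 and -0.11 in that order. There 5 of the 6 were lower, against 9 lower and 1 higher of the 13 and 9 lower and 2 higher of the 17. The Mcoln1 call in shGFP cells was lost in 6 alternative analyses.

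The IL4 response itself differed between shKDM1A and shGFP cells in 4 of 37 members, 1 with a positive difference, shKDM1A minus shGFP (all genes 3.56%), and 3 with a negative one (all genes 2.57%). Of the 94 further lysosomal genes tested, described below, 4 differed in the positive and 7 in the negative direction. Ctsc was at 11.12, 11.13, 11.15 and 11.15 in shGFP control, 11.31, 11.36, 11.35 and 11.41 in shGFP IL4, 10.86, 10.91, 10.87 and 10.97 in shKDM1A control and 11.40, 11.40, 11.45 and 11.43 in shKDM1A IL4 libraries. It started lower in shKDM1A cells and reached values with IL4 that overlapped those of shGFP IL4 libraries, so its rise was 0.52 ± 0.03 there against 0.22 ± 0.03 in shGFP cells, a difference in response of 0.30 (standard error 0.04, adjusted p = 0.000158). Naglu, an alpha-N-acetylglucosaminidase of heparan sulfate breakdown, was at 10.16, 10.18, 10.11 and 10.15, 10.31, 10.30, 10.34 and 10.19, 10.16, 10.24, 10.27 and 10.26 and 10.09, 10.02, 10.09 and 10.11 in the same order of groups. Naglu rose with IL4 in shGFP cells by 0.13 ± 0.03 and fell in shKDM1A cells, where its response was -0.15 ± 0.03, a difference in response of -0.29 (standard error 0.05, adjusted p = 0.00123).

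Npc1 and Lipa gave weaker differences. The Npc1 response was 0.05 ± 0.04 in shKDM1A against 0.26 ± 0.04 in shGFP cells (difference -0.21 (standard error 0.06, adjusted p = 0.0452)), and that of Lipa 0.08 ± 0.02 against 0.20 ± 0.02 (difference -0.12 (standard error 0.03, adjusted p = 0.0294)). The Npc1 call was lost in 14 alternative analyses and the Lipa call in 9, whereas Ctsc and Naglu were called in all of them at the threshold on adjusted p, though neither exceeded 0.5 in size. Leaving out shGFP control replicate 1 or 4, shGFP IL4 replicate 2 or 4, or shKDM1A control replicate 3 or 4 left 2 members called.

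**Figure D5:**
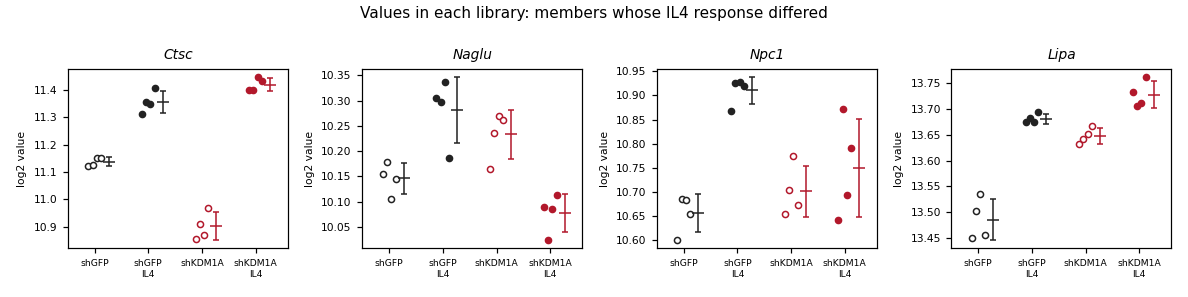
Log2 values in each of the 16 libraries (vertical axis, a separate range in each panel) for the 4 members whose IL4 response differed between shKDM1A and shGFP cells, with symbols as in the plot of the 6 members raised most. Ctsc spans 10.86 to 10.97 in shKDM1A control and 11.40 to 11.45 in shKDM1A IL4 libraries, and Naglu is highest in shGFP IL4 libraries, at 10.19 to 10.34.

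Outside the 37 members, 96 further lysosomal genes on lists by function were set beside them, of which 94 were tested (Hpse and Rragd were too low). Without IL4 35 of 94 were higher and 19 lower in shKDM1A cells (all genes 19.7% and 18.4%), and with IL4 40 and 25 (all genes 20.9% and 19.8%), with medians of 0.04 and 0.06. The remaining 12 proton pump genes were called higher in 7 and 9 cases, the others not being called, led by Atp6v0d2, a membrane-part subunit abundant in osteoclasts, at 0.84 (standard error 0.05, adjusted p = 1.36e-09) and 0.46 (standard error 0.05, adjusted p = 2.12e-06). Of 11 proteases and inhibitors, 6 were higher in either state and 1 was lower, the cystatin Cst7 (-0.22 ± 0.05 and -0.20 ± 0.05), named after its values were seen. Among the higher ones were Scpep1, a serine carboxypeptidase (0.48 ± 0.02 and 0.41 ± 0.02), and Ctsk, the osteoclast cathepsin (0.44 ± 0.02 and 0.46 ± 0.02). Hyal1, a hyaluronidase, was higher by 0.50 ± 0.03 without IL4. Of 14 glycan and sulfate enzymes tested, 7 and 8 were higher and 3 and 5 lower, and of 11 lipid and nucleic acid enzymes 3 were higher without IL4 and 4 higher and 3 lower with it. Among 20 further membrane genes, calls were 6 higher and 8 lower without IL4 and 5 higher and 11 lower with IL4, with Mcoln2, a channel related to Mcoln1, lower in both states (-0.40 ± 0.05 and -0.46 ± 0.05).

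Sortilin (Sort1), a sorting receptor for lysosomal proteins that also binds progranulin, had the lowest difference on these lists, from 9.46, 9.58, 9.34 and 9.46 in shGFP to 8.52, 8.51, 8.55 and 8.50 in shKDM1A control libraries (-0.94 (standard error 0.04, adjusted p = 1.83e-11), and -0.98 ± 0.04 with IL4). The sorting list had 3 higher and 2 lower genes in each state, Sort1 included, and the regulators 3 and 5 higher and 5 and 3 lower, with Tfec, a relative of Tfeb, lower in both states (-0.41 ± 0.05 and -0.55 ± 0.05).

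In response to IL4, 23 of the 94 further genes rose and 30 fell in the shGFP pool (all genes 13.1% and 13.7%), and 21 rose and 28 fell in the shKDM1A pool (all genes 13.6% and 13.5%). Slc17a5, the sialic acid exporter of the lysosome, rose by 0.43 ± 0.03 and 0.31 ± 0.03, and Mitf, another relative of Tfeb, by 0.42 ± 0.03 and 0.34 ± 0.03. Acp5, an acid phosphatase, rose by 0.24 ± 0.03 in shKDM1A cells. Lower genes were led by Fnip2, a folliculin partner (-0.35 ± 0.04 and -0.55 ± 0.04), Dpp7, a dipeptidyl peptidase (-0.32 ± 0.03 in shGFP cells), and Atp6v1d (-0.27 ± 0.05 in shGFP cells). In shKDM1A cells Hyal1 (-0.45 ± 0.03) and Atp6v0d2 (-0.36 ± 0.05) also fell. Among the 12 further pump genes 7 were lower in shGFP cells, and 4 lower and 1 higher in shKDM1A cells. Of the 11 sorting genes 4 were higher in shGFP and 3 in shKDM1A cells. The other genes of both lists were not called.

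Over the 16 libraries, the genes outside each group whose values followed its mean most closely were Npc2 (0.997), Ifitm3 (0.996) and Bst2 (0.996) for the proteases, by Pearson's r. For the glycan enzymes they were the transcript C77080 (0.978), Slc40a1 (0.976) and Atp6v1a (0.976), and for the pump subunits Edem1 (0.990), Pip5k1b (0.981) and Hyou1 (0.981). These r values describe points that fall into 4 groups of libraries and mostly restate the differences between the groups.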

How the data were processed

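RNA of shGFP and shKDM1A RAW264.7 cells was sequenced by the authors, and the submitters' processing notes name HISAT2, HOMER and DESeq2. Per the file headers, reads were counted without regard to strand on exons of mm9 genes with HOMER, 1 row per gene. The authors deposited log2 values per library, whose transformation is not given in the sources used here. They are moderated at low levels and cannot be read as counts. The tables' other columns, and all value columns of the BMDM table, are the authors' own fold changes and p-values and were not used.

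Libraries were grouped by their labels. The 12905 genes that reached 1 in no fewer than 4 libraries were fitted with limma 3.58.1 in R 4.3.3 (lmFit and eBayes, 4 group means, no replicate block), with Benjamini-Hochberg adjustment over all genes per comparison and calls under 0.05. Standard errors and 95% intervals come from that fit. The fit was tested on simulated data. Members and lists were chosen with earlier results of these data known. From the further lysosomal lists, genes named are the 3 largest called changes in each direction of each knockdown and IL4 comparison, and all members are named. A gene that this rule names is not reported here. Alternatives were no filter, a filter at 5, only the groups compared, a replicate block, leaving out each library, quantile normalization, median centring, a prior variance with a trend, and a log2 change over 0.5. The last of these enters the counts of members called, but not the numbers of alternatives in which a call was lost or gained. Same-numbered libraries did not vary together (24 pairs, correlation of deviations -0.34 to 0.27, 3 over 0.1), so numbers were not taken to pair the samples. Depth was 17554721 to 27782568 tags per library. Promoter windows are RefSeq sequences of GRCm38.p6.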

Additional observations from a re-analysis of the deposited data

Results flagged for a closer look

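By the interaction term of the limma fit, the IL4 response differed between shKDM1A and shGFP cells in 4 members and in 11 of the 94 further lysosomal genes tested, 4 in the positive and 7 in the negative direction (all genes 3.56% and 2.57%). Among the members, Ctsc differed by 0.30 (adjusted p = 0.000158), rising by 0.22 in shGFP and 0.52 in shKDM1A cells. Naglu differed by -0.29 (adjusted p = 0.00123), with responses of 0.13 and -0.15 in that order. Weaker differences were those of Npc1, -0.21 (adjusted p = 0.0452), and Lipa, -0.12 (adjusted p = 0.0294). Of the further genes that are named, 3 were among them. Atp6v0d2 differed by -0.38 (adjusted p = 0.0058), with 0.02 in shGFP and -0.36 in shKDM1A cells, and Hyal1 by -0.27 (adjusted p = 0.00104), with -0.18 and -0.45. Fnip2 responded by -0.35 and -0.55, a difference of -0.20 (adjusted p = 0.0467), and this call was lost in 14 alternative analyses.

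In 9 of the 204 groups of 4 libraries looked at, 1 library lay far from the other 3 by Dixon's test at its 95% critical value, where chance flags about 1 in 20 groups. In shGFP control replicate 3, Ctss was at 13.51 (the others 13.56 to 13.57), Gusb at 13.46 (the others at 13.49) and Npc2 at 12.21 (the others 12.31 to 12.32). In shKDM1A control libraries, Npc2 was at 12.92 in replicate 2 (the others 12.96 to 12.97) and Idua at 8.48 in replicate 4 (the others 8.37 to 8.38). The IL4 groups gave Npc1 at 10.87 in shGFP IL4 replicate 1 (the others 10.92 to 10.93), Tfeb at 9.72 in replicate 2 (the others 9.51 to 9.54), Lamp2 at 12.29 in replicate 4 (the others at 12.22) and, in shKDM1A IL4 replicate 1, Neu1 at 10.89 (the others 10.81 to 10.82).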

How the results depend on the processing

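The counts of members called were 27, 27, 30, 25 and 4 in the comparisons of shKDM1A with shGFP cells without and with IL4, of IL4 with control in shGFP and in shKDM1A cells, and of the 2 IL4 responses. With a log2 change over 0.5 also required they were 4, 4, 0, 1 and 0, so most called differences are small (all genes tested: 337, 319, 174, 141 and 17 in place of 4927, 5255, 3466, 3497 and 791). Leaving out 1 library gave 25 to 27, 26 to 28, 27 to 30, 25 to 26 and 2 to 5. With a replicate block the counts were 26, 27, 30, 25 and 4, and same-numbered libraries were not paired by the labels (6 of 16 correlated best with a library of their own number). Without the filter, 431 genes were called in the comparison of IL4 responses in place of 791. Quantile normalization turned 2 Ctsb values: the knockdown difference with IL4 became -0.058 (adjusted p = 0.0439) and the difference in IL4 response -0.13 (adjusted p = 0.0287), by limma. It left 18 members higher and 9 lower with IL4 in place of 21 and 6, and 6 differing in IL4 response, 5 of them negative, with Ctsb, Psap and Grn gained and Lipa lost. The cause was not tested. The requirement of a change over 0.5 left aside, the alternatives gave 3029 member values. Of these, 2898 kept direction and side of the threshold, 65 lost and 25 gained a call, and 39 uncalled values changed sign. Ctsh, at a log2 value near 1.6, could not be fitted under the filter at 5. Values of such weak genes are moderated, and whether depth limits their calls was not tested.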
